A study of Homo sapiens with 6 samples.

Results

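PABPC1, PABPC3 and PABPC4, which encode cytoplasmic poly(A)-binding proteins, and TPT1, which encodes the translationally controlled tumour protein, were followed across 3 conditions of the human melanoma line CHL-1, an established line. They are 4 of 11227 genes named in the deposited ribosome profiling tables. They were chosen by symbol, with the transcript row of most summed depth for each gene, when the low depth of PABPC1, PABPC3 and TPT1 in AZC + MG132 over parental cells was already known from these tables. Values of that contrast therefore describe the choice and support nothing about it.

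Ribosome profiling sequences the messenger fragments that ribosomes protect from nuclease. Treated cells were exposed for 20 minutes to 10 mM AZC (L-azetidine-2-carboxylic acid), which takes the place of proline in new proteins, and to 20 µM of the proteasome inhibitor MG132. In the series, CRISPR cells are CHL-1 edited at the box C/D small nucleolar RNA genes SNORD50A and SNORD50B, and parental cells were left untreated. The labels name no vehicle control and no control-edited line, and they do not say whether the edited line is 1 clone. The lysis buffer of all cells contained cycloheximide, an elongation inhibitor. Each condition has 2 libraries, 1 of them labelled as having ribosomal RNA removed, but only 1 table of values, so no spread between replicates exists and no p-value is given for any difference.

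Poly(A)-binding proteins coat the tail of messengers and bind the initiation factor eIF4G at the other end, which links the tail to initiation. They also recruit deadenylases and release factors, and PABPC1 can bind an adenine-rich stretch in its own 5′ UTR and repress its own translation. PABPC1 and TPT1 belong to the class of messengers that start with a terminal oligopyrimidine (TOP) tract, which makes their translation follow mTOR activity through LARP1.

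Levels are given as normalised depth, the summed read depth of a row after each table was scaled to a total of 1e+06. A row has 100 bins for the 5′ UTR, 200 for the coding sequence and 100 for the 3′ UTR, so a level is not scaled by length. Levels are compared between conditions, and where genes are picked by row depth that order says nothing of their level per length. Before scaling, the summed depth in units of 1e+06 was 367 in AZC + MG132, 586 in CRISPR and 474 in parental cells. Between 10002 and 10725 named genes were listed per table. The level minimum was the lower quartile of row depth in both tables of a comparison. Of the melanocyte markers, 6 of 8 were listed, but only SOX10 and S100B passed the minimum over parental. SOX10 was at 322.5, 352.5 and 395.7 in AZC + MG132, CRISPR and parental cells, and S100B at 41.4, 32.5 and 29.8. MITF, PMEL, DCT and MLANA lay under the minimum in AZC + MG132 over parental, MITF at 3.94, 9.47 and 5.97, and TYR and TYRP1 had no row. Of 9 markers of other cell types, 7 had no row, and KRT10 alone passed the minimum. All 4 mesenchymal and neural crest markers were lower in AZC + MG132 than in parental cells, where 55.3% of all genes compared were. None of these markers was past 2-fold, and their median log2 ratio was -0.56. Whether this bears on the 4 genes was not tested. Footprints count ribosomes on a messenger, so a lower messenger level and fewer ribosomes per messenger cannot be told apart in these tables.

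In AZC + MG132 against parental cells, all 4 genes were lower, 3 of them past 2-fold, a limit of size that tests nothing. Of 7277 genes above the minimum, 3.26% were past 2-fold, 0.866% higher and 2.39% lower, and the median log2 ratio was -0.05 (interquartile range -0.32 to 0.21). All 4 genes passed the minimum in every comparison. Counted from the lowest ratio, PABPC3 ranked 1, PABPC1 ranked 2, TPT1 ranked 12 and PABPC4 ranked 298. Genes whose treated depth was under the minimum are not in this ranking.

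**Figure D1:**
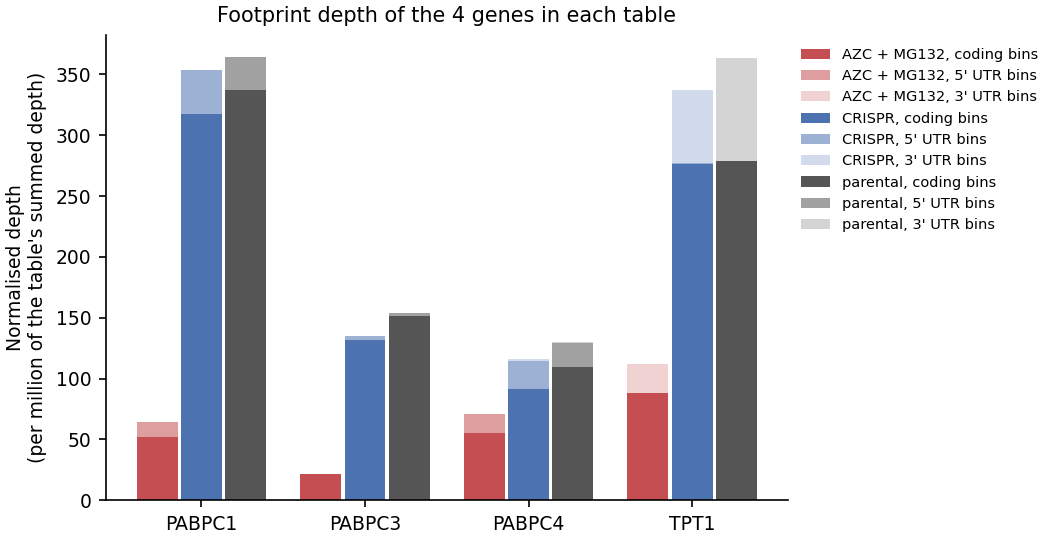
Normalised depth (each table scaled to a total of 1e+06) of the 4 genes, 1 stacked bar per table for AZC + MG132, CRISPR and parental cells, split into 5′ UTR, coding and 3′ UTR bins. PABPC1, PABPC3 and TPT1 are lowest in AZC + MG132 and close between CRISPR and parental, while the PABPC4 bars differ less; heights are not scaled by length.

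PABPC1 (NM_002568, chromosome 8), the main cytoplasmic poly(A)-binding protein of most cells, was at a normalised depth of 64.3 in AZC + MG132 cells, 353.7 in CRISPR cells and 364.3 in parental cells. The treated table alone was low. The log2 ratio of AZC + MG132 over parental was -2.50, a depth 5.66-fold lower. The next genes up in rank were TCF3, a transcription factor, at -2.19, and GIT1, a scaffold protein, at -1.97. These levels rest on summed base depths of 23629, 207436 and 172593 in AZC + MG132, CRISPR and parental cells. Depth counts bases and not reads, so no counting interval could be given.

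The lower PABPC1 depth ran along the entire coding sequence. In 20 coding windows of 10 bins, all 20 were past 2-fold lower in AZC + MG132 than in parental cells, with log2 ratios between -4.66 and -1.70 and a median of -2.77. Among 4106 genes with depth in all 20 windows of both tables, PABPC1 was the 1 gene past 2-fold lower in every window, and 33 genes (0.804%) were lower in every window by any amount. PABPC3 and TPT1 lacked depth in some windows and were not among the 4106. PABPC1 was chosen with its low depth known, so its place here describes the choice. The window with the lowest ratio, coding bins 181 to 190, held 0.719 in AZC + MG132, 16.5 in CRISPR and 18.1 in parental cells. The first 100 coding bins had a log2 ratio of -2.55 and the last 100 of -2.89. That drop of -0.34 between them was close to the -0.41 of the median gene, whose ratios were 0.03 and -0.40.

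The 5′ UTR of PABPC1 was lower by less than its coding sequence. It held 11.9 in AZC + MG132, 36.2 in CRISPR and 26.9 in parental cells, a log2 ratio of -1.18 over parental, beside -2.70 for coding bins at 52.1, 317.5 and 337.4. The 5′ UTR thus made up 18.5% of the row in AZC + MG132, 10.2% in CRISPR and 7.38% in parental cells. A gap in this direction was common. Over 4848 genes with enough depth in both regions (300 in each table), the 5′ UTR ratio exceeded the coding ratio by a median of 0.82, and in 88.4% of them by more than 0. The gap of PABPC1 was 1.52, above that of 82.2% of these genes. Within the 5′ UTR, bins 31 to 40 held 2.82 in AZC + MG132, 15.2 in CRISPR and 7.43 in parental cells. Bins 21 to 30 went the other way, with 1.38 in AZC + MG132, 0.955 in CRISPR and 0.120 in parental cells, a log2 ratio of 3.51 over parental. CRISPR over parental was 2.99 there, so the parental value was the low one, and it rests on little depth. Windows of this 5′ UTR varied widely, with bins 51 to 60 at -3.31 in AZC + MG132 over parental.

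The share of depth early in the coding sequence of PABPC1 differed less between treated and parental cells than in the median gene. The 5′ share, the mean depth of the first 20 coding bins over that of all 200, was 0.689 for PABPC1 in AZC + MG132, 0.718 in CRISPR and 0.644 in parental cells. The medians over genes were 1.42, 0.959 and 0.932 in these tables. The log2 shift of that share over parental was 0.10 for PABPC1, above 23.4% of 6880 genes, whose median was 0.60. PABPC4 lay beside it at 0.08. Both signs turned with the bins taken: PABPC1 was at -0.12 with the first 40 coding bins and at -0.37 without the first 2 of the 20, and PABPC4 at -0.06 with the first 40. Whether the low 5′ shift has to do with the low level was not tested.

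**Figure D2:**
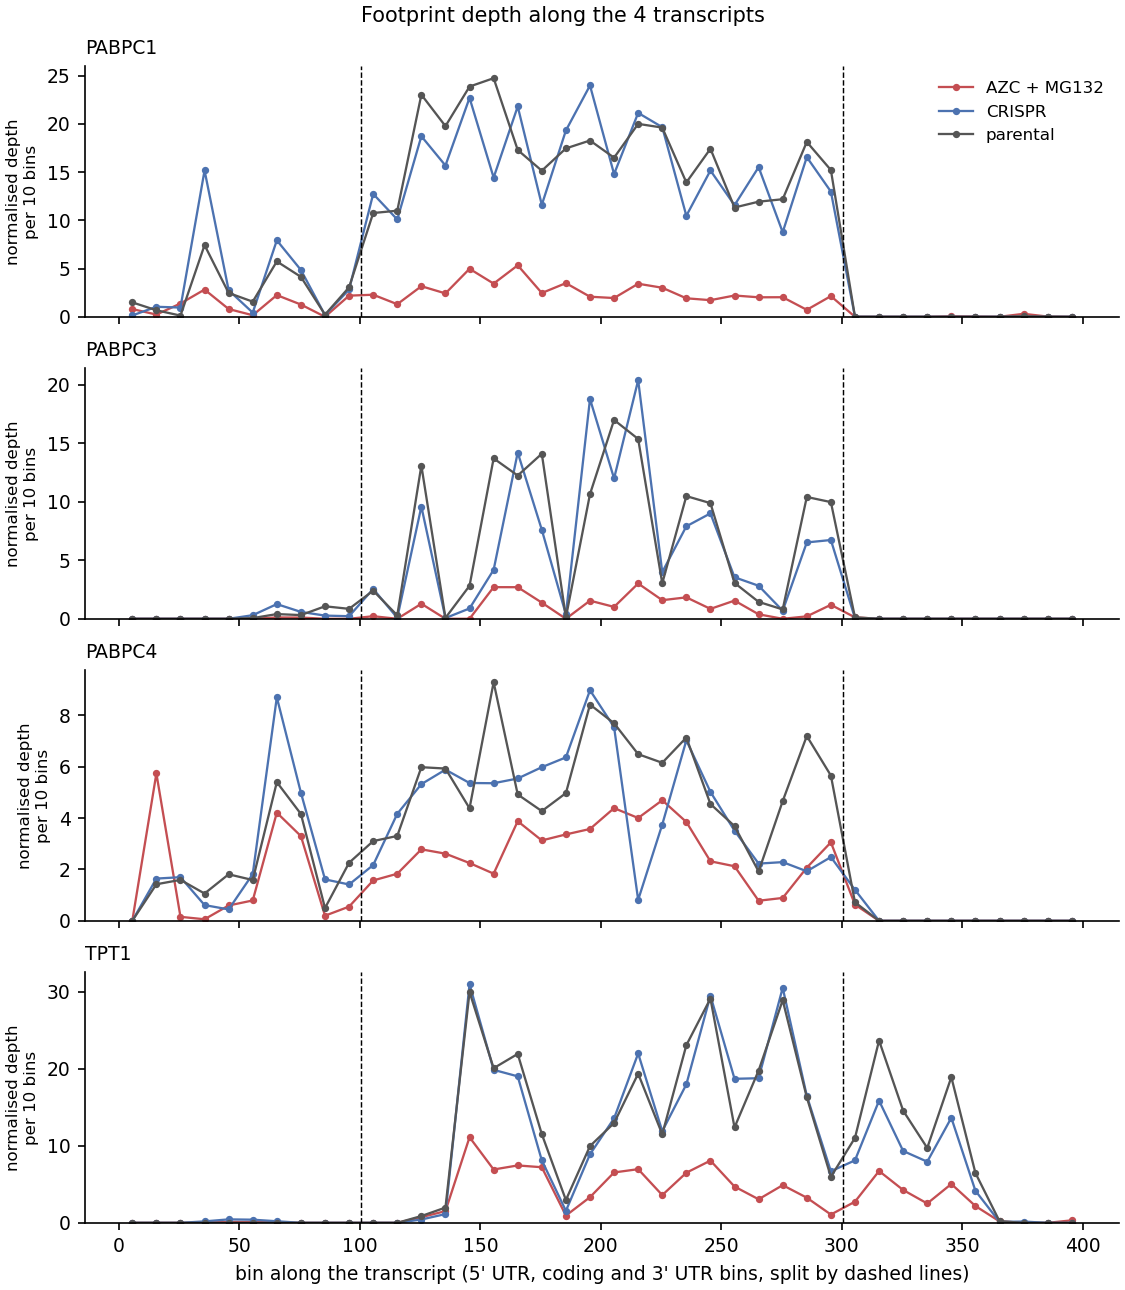
Normalised depth per 10 bins along each of the 4 transcripts (5′ UTR, coding and 3′ UTR bins follow each other, split by dashed lines), with 1 line per table. The AZC + MG132 line of PABPC1 lies under the parental line in all 20 coding windows, and TPT1 keeps its peaks at lower height and its empty start in all 3 tables.

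PABPC3 (NM_030979, chromosome 13) is an intronless copy of PABPC1 described in testis. Its row held 21.8 in AZC + MG132, 134.7 in CRISPR and 153.8 in parental cells, again with the treated table alone low. The log2 ratio over parental was -2.82, a depth 7.05-fold lower. The first 100 coding bins stood at -2.82 and the last 100 at -2.81. Of 15 windows with depth in both tables, 13 were past 2-fold lower. Reads of near-identical copies can be placed on either, so the separate values of PABPC3 and PABPC1 are uncertain.

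Depth along PABPC3 was broken where that along PABPC1 was not. PABPC3 had depth in 101 of 200 coding bins in AZC + MG132, 135 in CRISPR and 137 in parental cells, whereas PABPC1 had it in 196, 200 and 200. In 59 coding bins the PABPC3 row was at 0 in all 3 tables. PABPC1 was covered in 58 of those 59 bins in AZC + MG132 and in all 59 in CRISPR and parental cells. In them PABPC1 held 16.4 in AZC + MG132, 88.5 in CRISPR and 86.3 in parental cells, a log2 ratio of -2.40 over parental, beside -2.70 over all coding bins of PABPC1. In the 101 bins where PABPC3 had depth in all 3 tables, PABPC1 held 28.4 in AZC + MG132, 175.8 in CRISPR and 192.0 in parental cells. Adding the PABPC3 row to that of PABPC1 gave -2.59, beside -2.50 for the PABPC1 row alone. These readings of PABPC1 were added after the values had been seen.

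The 5′ UTR of PABPC3 was nearly empty, with 0.221 in AZC + MG132, 2.64 in CRISPR and 2.70 in parental cells. Per window, the PABPC3 depth as a ratio to that of PABPC1 ranged between 0 and 0.957 in AZC + MG132, between 0.0040 and 0.965 in CRISPR, and between 0.0038 and 1.03 in parental cells. Over the 200 coding bins, depth of both genes had a Pearson's r of 0.43 in AZC + MG132, 0.37 in CRISPR and 0.47 in parental cells. The bins of 1 table share its libraries, so these are descriptions. How much of the PABPC3 depth came from PABPC1 messengers was not tested.

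**Figure D3:**
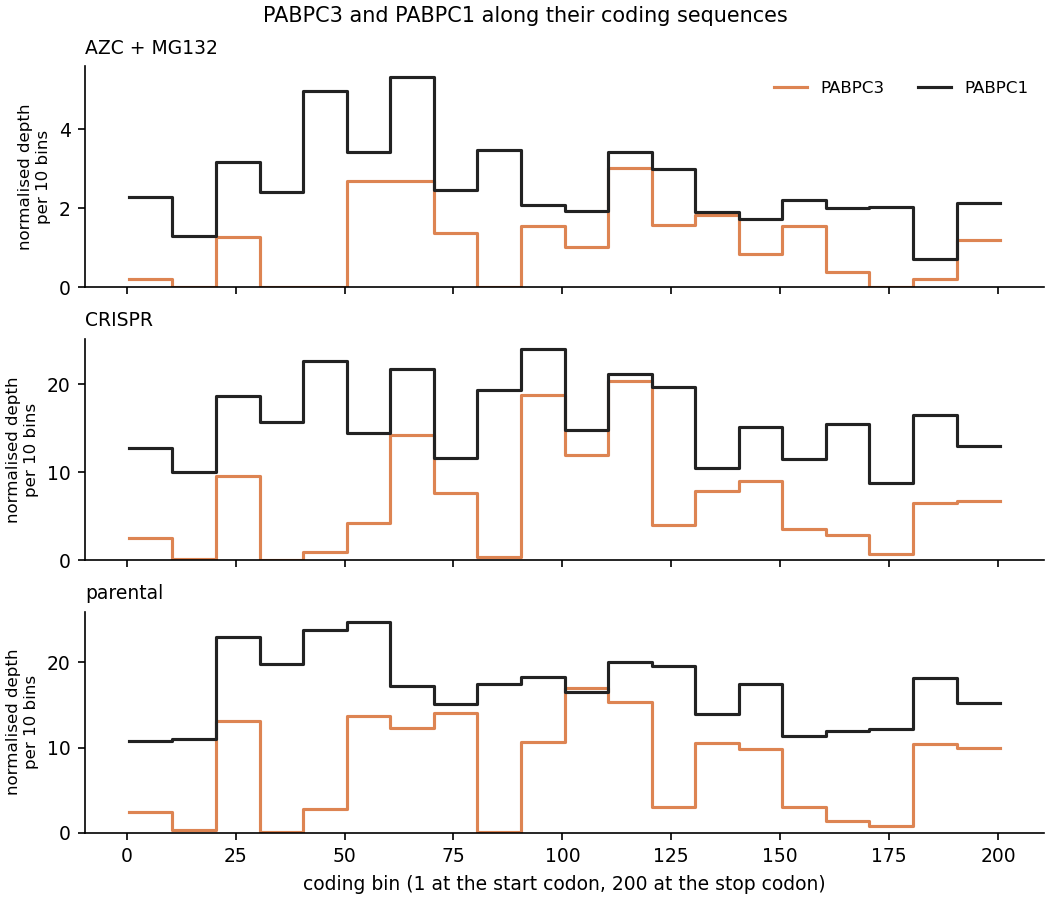
Normalised depth per 10 coding bins (bin 1 at the start codon, bin 200 at the stop codon) for PABPC3 and PABPC1, with 1 panel per table and its own vertical scale. PABPC3 comes close to PABPC1 in some windows and is at or near 0 in others, such as coding bins 31 to 40 in all 3 panels.

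PABPC4 (NM_001135653, chromosome 1), first known as the inducible poly(A)-binding protein of activated T cells, was at 71.2 in AZC + MG132, 115.8 in CRISPR and 130.2 in parental cells. The log2 ratio over parental was -0.87, a depth 1.83-fold lower and short of the 2-fold limit, and 4.08% of genes were lower still. SMG5, FBH1, SLC9A3 and KAT8 stood next to it, all at -0.87. The other 2 PABPC4 transcript rows differed little, with NM_001135654 at 69.9, 113.7 and 126.7 and NM_003819 at 69.7, 114.4 and 129.2 in AZC + MG132, CRISPR and parental cells. These rows share most of their sequence and are not replicates.

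All 20 coding windows of PABPC4 were lower in AZC + MG132 than in parental cells, 7 of them past 2-fold, with log2 ratios between -2.39 and -0.34. It is thus among the 33 genes lower in every window. The coding bins alone stood at -0.996, and the 5′ UTR at -0.34, with 15.6 in AZC + MG132, 22.9 in CRISPR and 19.8 in parental cells. The gap of 0.65 between them was above that of 40.6% of genes.

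A stretch of the PABPC4 5′ UTR was higher in AZC + MG132 than in CRISPR and parental cells. Bins 11 to 20 held 5.74 in AZC + MG132, 1.64 in CRISPR and 1.42 in parental cells, a log2 ratio of 2.01 over parental. Bins 18, 19 and 20, at 1.60, 1.49 and 1.40, were the highest of the treated row. Bin 69 led the CRISPR row, with 1.30 in AZC + MG132, 2.63 in CRISPR and 1.58 in parental cells. The 5′ UTR was already well covered without treatment. It carried 28.4% as much depth as the coding bins in AZC + MG132, 25.01% in CRISPR and 18.04% in parental cells, where the median gene carried 11.6%, 6.40% and 5.88%.

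TPT1 (NM_003295, chromosome 13), a small conserved protein tied to growth and survival, was at 112.3 in AZC + MG132, 336.8 in CRISPR and 363.4 in parental cells. The log2 ratio over parental was -1.69, a depth 3.24-fold lower. CDC42BPB, a kinase, stood just below it at -1.71, and MYO5B, a myosin, just above at -1.67. Of 18 coding windows with depth in both tables, all 18 were lower and 14 past 2-fold, with log2 ratios between -2.69 and -0.26.

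The difference was larger toward the 3′ end of the TPT1 coding sequence, a direction that the median gene shared. Its first 100 coding bins held 39.3 in AZC + MG132, 90.0 in CRISPR and 99.3 in parental cells, a log2 ratio of -1.34 over parental. The last 100 held 48.7, 186.2 and 179.4, a log2 ratio of -1.88. The difference of -0.54 compares with -0.41 in the median gene, and 40.2% of genes had a lower value. Bins 171 to 180 held 4.89 in AZC + MG132, 30.5 in CRISPR and 28.9 in parental cells.

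The shape of the TPT1 profile was otherwise shared by the tables. Coding bins 49, 50, 52, 47 and 45 were the 5 highest in each table, with bin 49 at 1.82 in AZC + MG132, 5.22 in CRISPR and 5.13 in parental cells. Over the 200 coding bins, Pearson's r with the parental profile was 0.88 for AZC + MG132 and 0.97 for CRISPR, and the median of 3528 genes of greater row depth was 0.46 in both comparisons. In PABPC1 it was 0.43 for AZC + MG132 and 0.61 for CRISPR. The 3528 genes were not matched to TPT1 in row depth or coding length, and whether either accounts for the higher r was not tested. These correlations lie within single rows and carry no p-value.

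Start and end of the TPT1 row were unusual. The first 25 coding bins were at 0 in all 3 tables, and the first covered bin was number 27. Among the rows in the top 5% of depth, 20 of 921 (2.17%) had such an empty start in AZC + MG132, 36 of 990 (3.64%) in CRISPR and 33 of 966 (3.42%) in parental cells. TPT1 is in these sets in CRISPR and parental cells, and in AZC + MG132 its depth was not in the top 5%. No 5′ shift could be computed for TPT1, since the first 20 coding bins were at 0. The 5′ UTR held 0.327 in AZC + MG132, 1.25 in CRISPR and 0 in parental cells. The 3′ UTR held 24.0025, 59.4 and 84.6, which was 21.4% of the row in AZC + MG132, 17.6% in CRISPR and 23.3% in parental cells. These shares were above those of 96.25%, 96.35% and 97.95% of genes in the same order of conditions. The median gene had 1.96%, 1.39% and 1.34% there. The 3′ UTR log2 ratio over parental was -1.82 in AZC + MG132 and -0.51 in CRISPR. Whether the empty start and the filled 3′ UTR come from read mapping, from the transcript model or from the cells was not tested.

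Among the 4 genes, TPT1 had an entry in the RefSeq table of gene starts (GRCh38.p14). Its start is shown with that of RPL12, the gene with the nearest pair of ratios, of RPS12 and RPLP1, the other ribosomal protein genes past 2-fold lower, and of EEF1A1 and EEF2, elongation factor messengers of the TOP class picked after their values near the parental level were seen. Each window holds 15 bases before and 15 from the annotated start, 5′ to 3′ on the coding strand, and the capitals mark the TOP-like tract, a C at the start followed by at least 4 further pyrimidines. The windows are chr13:45341169-45341198 (minus strand) for TPT1, chr9:127451392-127451421 (minus) for RPL12, chr6:132814554-132814583 (plus) for RPS12, chr15:69452803-69452832 (plus) for RPLP1, chr6:73521018-73521047 (minus) for EEF1A1 and chr19:3985449-3985478 (minus) for EEF2.
TPT1: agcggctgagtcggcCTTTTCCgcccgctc
RPL12: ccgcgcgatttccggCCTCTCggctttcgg
RPS12: gcgtgcggatgaggcCTCTTTCCCTgccgc
RPLP1: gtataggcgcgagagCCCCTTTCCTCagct
EEF1A1: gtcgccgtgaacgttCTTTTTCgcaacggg
EEF2: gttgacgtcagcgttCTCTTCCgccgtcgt

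The tracts of TPT1, EEF1A1 and EEF2 had the same length of 7 bases, that of RPL12 had 6, that of RPS12 had 10 and that of RPLP1 had 11. In AZC + MG132 over parental, the log2 ratios were -1.69 for TPT1, -1.67 for RPL12, -1.06 for RPS12, -1.15 for RPLP1, -0.11 for EEF1A1 and -0.29 for EEF2. The annotated start of RPL3, at -0.18, had no such tract. A TOP-like tract stood at 729 of 15843 protein-coding starts (4.60%). Of 368 such genes above the minimum, 10 (2.72%) were past 2-fold lower, against 135 of 6103 genes with a start in the table (2.21%). Their median log2 ratio was -0.14, beside -0.05 for all genes with a start, and 63.6% lay below 0, against 55.3% of all genes with a start. With ribosomal proteins left out, 7 of 326 (2.15%) were past 2-fold lower, with a median of -0.12 and 61.3% below 0. A tract read from an annotated start is a description of those letters.

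The medians of related gene lists lay nearer to 0 than any of the 4 genes. Of 45 genes of the poly(A) tail and of partners of poly(A)-binding proteins, 3 were past 2-fold lower and 1 past 2-fold higher, with a median log2 ratio of -0.20. Over all genes compared, 2.39% were past 2-fold lower and 0.866% higher. Of the 45, 27 (60%) lay below 0, against 55.3% of all genes compared. Among the lower genes, TNRC6A, which links microRNA complexes to deadenylation, was at -1.21, and PATL1, a decapping factor, at -1.02. TENT4A, a poly(A) polymerase at -1.50, was listed but left out of these counts because its treated depth was under the minimum. PAIP2B, an inhibitor of poly(A)-binding proteins, was at 20.9, 14.9 and 8.85 in AZC + MG132, CRISPR and parental cells, a log2 ratio of 1.24 over parental.

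Other direct partners lay within 2-fold of parental. The eIF4G proteins that bind PABPC1 stood at 0.14 for EIF4G1 and -0.80 for EIF4G3, and the helicase EIF4A1, with the greatest row depth of the list, at 0.47. PAIP1, which stimulates initiation, was at -0.97, and the inhibitor PAIP2 at -0.20. The release factor GSPT1 was at -0.40 and LARP1, which binds TOP starts, at -0.65. The nuclear poly(A)-binding protein PABPN1 was at -0.15, SYNCRIP at 0.12 and HNRNPD at -0.10. PABPC5 was listed in the parental table alone, at 2.80, and PABPC1L and PABPC4L had no row.

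Among 34 TOP messengers other than ribosomal proteins above the minimum, 0 were past 2-fold in either direction, where 3.26% of all genes compared were. At that share, a 0 in so short a list says little of its genes. The 1 further listed gene, CCNI, a cyclin, was at 6.55 in AZC + MG132, 53.9 in CRISPR and 48.3 in parental cells, a log2 ratio of -2.88 over parental. It was left out of the count because its treated depth was under the minimum, so the 0 does not cover it. The median of the 34, -0.03, changed sign when tables were scaled to the median ratio or without the most abundant 1% of rows. Those of greatest row depth were EEF1A1, EEF2, LDHB (lactate dehydrogenase) at -0.02 and HNRNPA1, a splicing protein, at 0.10. Of 77 cytosolic ribosomal proteins, 3 were past 2-fold lower and 0 higher, where 2.39% and 0.866% of all genes were. Their median was -0.26, and 64 (83.1%) lay below 0, against 55.3% of all genes. The 3 past 2-fold lower were RPL12 at -1.67, RPLP1 at -1.15 and RPS12 at -1.06. Those of greatest row depth, RPL3, RPL7, RPL8 and RPL23A, stood at -0.18, -0.21, -0.29 and -0.18. Of 21 genes tied to TPT1, 0 were past 2-fold, again beside 3.26% of all genes, with a median of 0.03. In that list MCL1, a survival protein that TPT1 binds, was at 0.50, and RHEB, the GTPase upstream of mTOR, at -0.05. Those of greatest row depth were ACTB (actin) at 0.02, HSP90AA1 (a chaperone) at 0.24, TUBA1B (tubulin) at -0.08 and YWHAZ (a 14-3-3 protein) at 0.04.

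**Figure D4:**
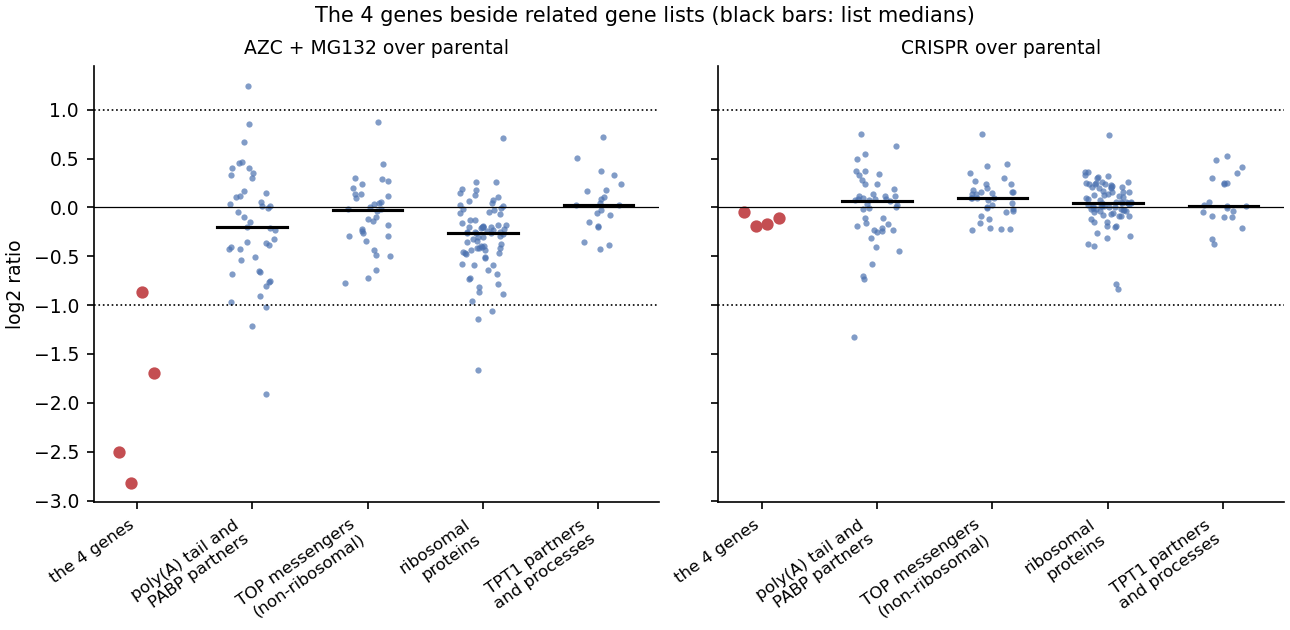
Log2 ratios of the 4 genes and of the genes of 4 related lists above the level minimum, with AZC + MG132 over parental and CRISPR over parental in separate panels; each point is a gene and black bars are medians. In AZC + MG132, PABPC1, PABPC3 and TPT1 lie below -1, while the list medians lie between -0.26 and 0.03.

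The genes most like each member were sought among 3532 genes of greater row depth, by the distance between pairs of log2 ratios over parental in AZC + MG132 and CRISPR cells. GIT1 and SCARA3 were among the 3 nearest to PABPC1, at distances of 0.610 and 0.775, and among the 3 nearest to PABPC3, at 0.959 and 0.944. RPL12 was nearest to TPT1, at 0.031. RPL12 was at 58.8 in AZC + MG132, 175.3 in CRISPR and 186.8 in parental cells. PTP4A2, a phosphatase, followed at 0.178 and WNK1, a kinase, at 0.212. PABPC4 had close neighbours in SLC35B2 (0.012) and PCM1 (0.029). The pattern rests on 3 tables.

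In CRISPR against parental cells, the log2 ratios of the 4 genes were -0.04 for PABPC1, -0.19 for PABPC3, -0.17 for PABPC4 and -0.11 for TPT1. None was past 2-fold, where 2.4% of 7540 genes were, 1.1% higher and 1.3% lower, and the median gene stood at 0.0040. ACTB was at -0.09 and GAPDH at 0.10. The ratio of PABPC1 became 0.04 in the coding bins where PABPC3 was at 0.

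Single stretches differed more than the sums. The last 100 coding bins of PABPC4 held 28.2 in AZC + MG132, 36.6 in CRISPR and 55.1 in parental cells, a log2 ratio of -0.59 for CRISPR over parental, while its first 100 stood at 0.01. The drop between them was -0.61, and 14.4% of genes had a lower value. Coding bins 111 to 120 of PABPC4 held 4.003 in AZC + MG132, 0.815 in CRISPR and 6.49 in parental cells, a log2 ratio of -2.99 for CRISPR over parental, and bins 181 to 190 held 2.07, 1.93 and 7.19 in the same order of conditions. By contrast, 0 of 20 coding windows of PABPC1 were past 2-fold lower in CRISPR cells, 12 being lower and 8 higher. For TPT1, 9 of 18 windows with depth in both tables were lower, 1 of them past 2-fold, and 9 were higher. For PABPC3, 12 windows were lower, 3 of them past 2-fold, and 8 were higher, with log2 ratios between -1.78 and 1.65. The poly(A) list had a median of 0.07, with 0 of 45 genes past 2-fold higher and 1 lower, TENT5A, a poly(A) polymerase, at -1.32. Over all genes compared, 1.1% were past 2-fold higher and 1.3% lower.

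**Figure D5:**
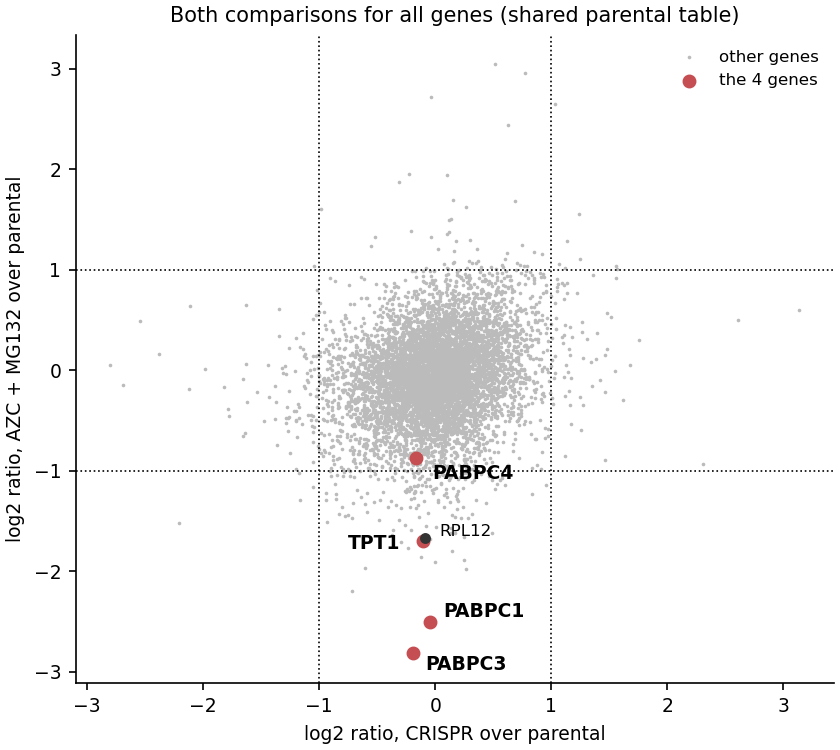
Log2 ratio of AZC + MG132 over parental (vertical) against CRISPR over parental (horizontal) for all genes above the minimum in all 3 tables, with the 4 genes marked. PABPC1, PABPC3 and TPT1 lie at the lower edge with horizontal values of -0.04, -0.19 and -0.11; both axes share the parental table, so no correlation is given.

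In AZC + MG132 against CRISPR cells, which uses the same treated table again, the log2 ratios were -2.46 for PABPC1, -2.63 for PABPC3, -0.70 for PABPC4 and -1.58 for TPT1. Of the 4, 3 were past 2-fold lower, where 4.13% of 7219 genes were, with 2.33% higher and 6.46% in either direction. PABPC3 ranked 2 and PABPC1 ranked 4 from the lowest ratio, TPT1 ranked 47 and PABPC4 ranked 755. All 20 coding windows of PABPC1 were past 2-fold lower, which held for 2 of 3014 genes with depth in all windows, PABPC1 and ITIH5. PABPC4 had 16 windows lower and 4 higher. Its ratio was -1.04 in the first 100 coding bins and -0.38 in the last 100. In the poly(A) list 1 of 45 genes was past 2-fold higher, TENT5A at 1.34, and 2 were past 2-fold lower, PATL1 among them at -1.65. Of the ribosomal proteins 6 of 77 were past 2-fold lower, with a median of -0.33.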

How the data were processed

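Ribosome-protected fragments of 6 libraries in 3 conditions were deposited as 3 tables, 1 per condition, whose condition was taken from the table's name. Per the submitters' processing notes, Bowtie2, TopHat2 and hg19 were used. How the libraries of a condition were joined is, in the sources used here, not given. Deposited values are log2(depth + 1), rounded by the authors to 2 decimals, in 400 bins per RefSeq transcript. Coding bins also contain the deposited value of the row above, which was subtracted: 100% of low coding bins were then whole within a tolerance of 0.06, against 12.0% to 12.4% with a random row subtracted. This reading comes from the values, not from a stated method.

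Depth was summed over bins (Python 3.11.15, pandas 2.3.3, numpy 2.4.6, matplotlib 3.10.9), scaled to the table total, and compared as log2 ratios with 0.5 added to the summed depth, for genes above the lower quartile (25%) of row depth in both tables. The calculation was tested on simulated data. Symbols come from RefSeq. Genes named are the 4 members, the list genes past 2-fold or among the 4 highest of each list, the 3 nearest patterns and the 3 neighbours in rank per member, with ACTB and GAPDH. Further partners named (EIF4G3, PAIP1, PAIP2, GSPT1, LARP1, PABPN1, MCL1, RHEB, PABPC5, CCNI and TENT4A), with EEF1A1 and EEF2 as sequences, were picked after their values were seen. Not every gene picked by this rule is reported here. Members and lists were chosen with earlier results of these data known. Coding lengths and protein identity between PABPC1 and PABPC3 were not used here.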

Additional observations from a re-analysis of the deposited data

How the results depend on the processing

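All alternative log2 ratios of the 4 genes lay within 1.5-fold of the values given. In AZC + MG132 over parental they ranged from -2.89 to -2.40 for PABPC1, -2.82 to -2.69 for PABPC3, -1.02 to -0.80 for PABPC4 and -1.88 to -1.34 for TPT1, and PABPC4 passed 2-fold only in the first 100 coding bins (-1.02). The small CRISPR ratios of PABPC1 (-0.09 to 0.04), PABPC4 (-0.59 to 0.01) and TPT1 (-0.14 to 0.05) include both signs. Signs of the small 5′ shifts of PABPC1 and PABPC4 turned with the bins taken, and the 5′ shift of PABPC3 depends on subtracting the row above: with values as deposited it was 0.16 and not -0.80 over parental.

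Counts of genes past 2-fold moved by over 1.5 times under several choices. With the first 100 coding bins alone, 240 genes were higher and 344 lower in AZC + MG132 over parental, against 63 and 174, 238 and 379 in CRISPR over parental, against 83 and 98, and 513 and 468 in AZC + MG132 over CRISPR, against 168 and 298. With a level minimum 4 times higher these counts were 10 and 32, 9 and 20, and 32 and 57, and with none 236 and 421, 329 and 414, and 507 and 640. With coding bins alone, 334 were lower over parental and 468 over CRISPR in AZC + MG132. Without the most abundant 1% of rows 105 were higher in AZC + MG132 over parental, and with values as deposited 48 in CRISPR over parental. The cause was not tested.

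No paired analysis was possible because each condition has 1 table and no column per library. Depth counts bases, so the number of fragments behind a value is unknown, and differences between libraries cannot be told apart from those between conditions. Each condition has 1 library labelled as having ribosomal RNA removed, but how much each library gave to the pooled values is unknown.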

Other observations

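PTP4A2, near TPT1 in pattern, held a normalised depth of 21.5 in AZC + MG132, 53.6 in CRISPR and 54.1 in parental cells in its 5′ UTR and 1.71, 15.8 and 14.8 in its coding bins, so that most of its row lay outside the coding sequence in all 3 tables.

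PAIP2B had 6.60 in AZC + MG132, 3.47 in CRISPR and 1.82 in parental cells in its 5′ UTR, a log2 ratio of 1.86 over parental, and 10.5, 11.0 and 6.77 in coding bins, a log2 ratio of 0.63. Its 3′ UTR held 3.85, 0.370 and 0.262, so the untranslated bins took part in the higher row total. TENT5A coding bins held 81.5 in AZC + MG132, 35.5 in CRISPR and 89.2 in parental cells, with the CRISPR table alone low.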
